A study of Mus musculus with 5 samples.

Results

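The 10 genes described here are 9 Toll-like receptor genes of the mouse (Tlr1, Tlr2, Tlr4, Tlr5, Tlr6, Tlr7, Tlr8, Tlr9 and Tlr13) and Cd14, which encodes the CD14 co-receptor. They were taken by name from a table of 34240 features, and all 10 had a row. All 5 RNA sequencing libraries were from BALB/c mice aged 10 to 12 months. The 3 normal libraries held Gr1+Mac1+ myeloid cells sorted from the bone marrow of normal mice. The 2 AML libraries held Mac+Gr1+B220+ cells of leukaemic mice, whose acute myeloid leukaemia was driven by CNTRL-FGFR1, a fusion that joins FGFR1, a receptor tyrosine kinase, to centriolin, a protein of the centrosome. Bone marrow and spleen are both named as the tissue of the AML cells, so tissue and sort cannot be told apart from group. Neither the delivery of the fusion nor the use of 1 or several animals per group was known here. The p-values below therefore set group differences only against the spread between these libraries, moderated over all tested genes, and this spread may be technical. Values are RPKM, reads scaled by exon length and by library size, a unit inferred from the numbers. Levels of different genes can be compared on this scale because it is per length. Normal library 3 stood apart from the other normal libraries, and where leaving it out changed the call of a receptor or pathway gene described below, both values are given.

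Toll-like receptors are membrane proteins with a leucine-rich ectodomain that binds microbial molecules and a cytoplasmic TIR domain that recruits the adaptors MyD88 or TRIF. Neutrophils and monocytes use them to detect bacteria, and the signal ends in NF-kappaB, MAP kinases and interferon regulatory factors. TLR2 (with TLR1 or TLR6), TLR4 and TLR5 sit at the cell surface, whereas TLR7, TLR8, TLR9 and TLR13 read nucleic acids in endosomes.

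All 10 genes had a lower mean in AML than in normal cells, and 5 of them passed the test. Tlr2, Tlr4, Tlr5, Tlr8 and Tlr13 fell, by 3.61-fold to 64-fold in RPKM. Tlr1, Tlr6, Tlr7, Tlr9 and Cd14 did not pass, and no gene of the set rose. Of all 10166 tested genes, 11.8% were called lower and 19.3% higher in AML cells, 31% in either direction (limma, Benjamini-Hochberg adjusted p under 0.05). These were 1196 lower and 1959 higher genes, a split that upper quartile scaling turned to 1687 lower and 1128 higher. The median log2 fold change was -1.64 over the 10 receptor genes and 0.12 over all tested genes. Tlr5, Tlr8 and Tlr9 reached the filter of 1 RPKM in 2 libraries through normal libraries alone, so a difference was built into their passing, and the count and median are descriptions. With no filter on low values the number of called genes was also 5. In 7 of the 10 genes the AML libraries lay below all normal libraries, an arrangement found in 22.1% of tested genes, while the reverse arrangement held for none of the 10 and for 34.8% of tested genes. The 7 included Tlr5, Tlr8 and Tlr9, whose way through the filter favours AML libraries lying below normal ones.

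**Figure D1:**
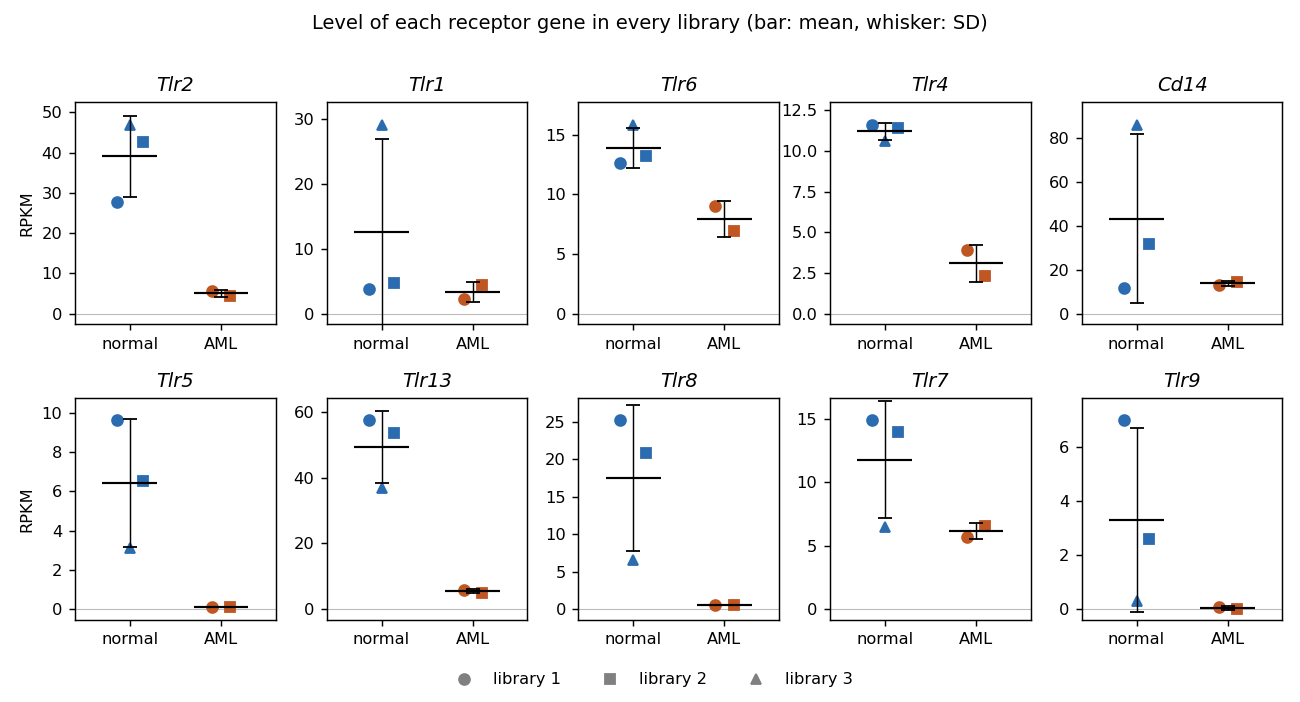
RPKM (vertical axes, linear, each gene on its own scale) of the 10 genes in the 3 normal (blue) and 2 AML (orange) libraries, with symbols for library number, a bar at the group mean and whiskers of 1 SD, cut at the lower edge of the panel for Tlr1. The AML points lie below every normal point for Tlr2, Tlr4, Tlr5, Tlr6, Tlr8, Tlr9 and Tlr13 and overlap the normal points for Tlr1, Tlr7 and Cd14.

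The bases upstream of the start sites are given for the genes that fell and have an entry in the RefSeq promoter table, to show what sequence lies before a start whose transcript level dropped. From the table (build GRCm38.p6), 9 windows of 250 bases for 7 of the genes were used. No window of Tlr4, Tlr7 or Cd14 was used, so these genes are named only and the motif counts leave them out. For Cd14 this does not show that the table lacks an entry. Each window matched the mm9 genome at exactly 1 place, and coordinates are in mm9. Bases inside the annotated gene were left out, which shortened the Tlr2 and Tlr13 stretches. Capitals mark matches, on either strand, to the PU box GAGGAA (bound by PU.1), the C/EBP motif TTGCNNAA, the AP-1 motif TGANTCA or the NF-kappaB motif (GGG and TTCC with any 3 bases between them). Sequences run 5′ to 3′ on the strand of the gene.
Tlr2, chr3:83645690-83645780, minus strand: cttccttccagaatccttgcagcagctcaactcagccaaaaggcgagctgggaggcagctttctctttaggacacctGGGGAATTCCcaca
Tlr13, chrX:103338364-103338542, plus strand: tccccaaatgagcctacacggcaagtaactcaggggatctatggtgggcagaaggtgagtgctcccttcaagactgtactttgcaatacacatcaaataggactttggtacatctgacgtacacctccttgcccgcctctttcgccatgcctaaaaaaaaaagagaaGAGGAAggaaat
Tlr8, chrX:163702262-163702511, minus strand: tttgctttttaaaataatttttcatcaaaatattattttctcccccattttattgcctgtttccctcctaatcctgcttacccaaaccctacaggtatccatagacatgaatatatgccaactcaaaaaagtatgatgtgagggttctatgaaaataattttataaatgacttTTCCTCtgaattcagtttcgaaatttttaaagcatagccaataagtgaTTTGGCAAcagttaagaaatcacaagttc
Tlr5, chr1:184884669-184884918, plus strand: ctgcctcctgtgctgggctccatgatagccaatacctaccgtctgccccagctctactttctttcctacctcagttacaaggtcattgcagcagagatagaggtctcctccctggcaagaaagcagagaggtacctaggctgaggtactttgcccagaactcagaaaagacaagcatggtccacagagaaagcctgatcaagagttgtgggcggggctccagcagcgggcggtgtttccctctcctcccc

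A PU box lay in 4 of the 9 windows (1 each of Tlr1, Tlr8, Tlr9 and Tlr13), and in 23.3% of the 32817 windows of the same length in the table. It began 83 bases before the RefSeq start site of Tlr13, 77 before that of Tlr8, 112 before that of Tlr9 and 23 before 1 of the 2 start sites of Tlr1. An NF-kappaB match was found for Tlr2 and Tlr6 (4.65% of all windows), a C/EBP match for Tlr6 and Tlr8 (9.57%) and an AP-1 match for Tlr9 (6.75%). None of the 4 motifs was found in the 250 bases before Tlr5. Of the genes with a PU box, Tlr8 and Tlr13 fell, and Tlr1 and Tlr9 had lower means in AML cells but did not pass. The transcript of PU.1 itself, listed as Sfpi1, stood at 245.8, 228.7 and 318.5 RPKM in the normal and 211.5 and 169.2 RPKM in the AML libraries. The AML libraries were lower without overlap, but the difference did not pass the test (log2 fold change -0.47, limma adjusted p = 0.22). The part of PU.1 in the receptor levels was not tested.

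Tlr2, which detects bacterial lipoproteins as a dimer with TLR1 or TLR6, was 7.73-fold lower in AML cells. It lies on chromosome 3 (83640195 to 83645689, minus strand, ENSMUSG00000027995.9). Normal libraries 1 to 3 stood at 27.6, 42.6 and 46.9 RPKM and AML libraries 1 and 2 at 5.7 and 4.4 RPKM. All normal libraries were well above both AML libraries, and normal library 1 was the lowest of its group. The means were 39 ± 10.1 RPKM (SD, n = 3) and 5.05 ± 0.919 RPKM (SD, n = 2). The log2 fold change on the log2(RPKM + 1) scale, which understates the change of low genes, was -2.70 (SE 0.29, limma adjusted p = 0.0013).

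The dimer partners Tlr1 and Tlr6, which lie 20.3 kb apart on chromosome 5 (65316050 to 65324000 and 65344345 to 65351287, both minus strand), did not pass the test, and whether they differed from Tlr2 in their change was not tested. Tlr6, the partner for diacylated lipopeptides, was listed at 12.64, 13.18 and 15.84 RPKM in normal and 9.03 and 6.9 RPKM in AML libraries. The AML libraries were lower without overlap, by 1.74-fold, but the difference narrowly missed the threshold (log2 fold change -0.74, 95% interval -1.29 to -0.19, limma adjusted p = 0.051). It passed under upper quartile scaling (adjusted p = 0.0198), quantile normalization (0.0308) and a fit with no variance trend (0.0491).

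Tlr1, the partner for triacylated lipopeptides, was at 3.73, 4.78 and 29.09 RPKM in normal and at 2.27 and 4.46 RPKM in AML libraries. Normal library 3 stood alone, 6.84-fold above the mean of normal libraries 1 and 2, and AML library 2 lay between those 2 libraries. The difference between groups did not pass (log2 fold change -1.15, 95% interval -2.97 to 0.67, limma adjusted p = 0.29). Without normal library 3 the log2 fold change was -0.31. Of the windows of 50 bases in the Tlr1 transcripts, 17.4% also occurred in those of Tlr6, so reads from these stretches can be split between the 2 genes. No other pair of the 10 genes shared a window of 50 or 36 bases.

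Of the genes of lipopolysaccharide recognition, Tlr4 and Ly96 fell and Cd14 did not pass the test. TLR4 is the signalling receptor, MD-2 (Ly96) its lipid-binding partner and CD14 the co-receptor that hands lipopolysaccharide over. Tlr4 (chromosome 4, 66488618 to 66591318, plus strand) was at 11.6, 11.4 and 10.6 RPKM in normal and at 3.9 and 2.3 RPKM in AML libraries. Normal libraries differed by little, and both AML libraries were lower. Means of 11.2 ± 0.529 RPKM (SD, n = 3) and 3.1 ± 1.13 RPKM (SD, n = 2) differed by 3.61-fold. The fit gave a log2 fold change of -1.60 (SE 0.25) with a limma adjusted p of 0.0047. Its call was lost without AML library 2 (adjusted p = 0.051).

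Ly96 was also lower, at 9.1, 12.6 and 16.4 RPKM in normal and 1.9 and 3.2 RPKM in AML libraries (log2 fold change -1.94, limma adjusted p = 0.0053). Whether the change of Cd14 differed from that of Tlr4 or Ly96 was not tested. Cd14 was listed at 11.8, 31.6 and 85.8 RPKM in normal and at 13 and 14.4 RPKM in AML libraries. Both AML libraries were above normal library 1 and below the other normal libraries. The fit gave a log2 fold change of -1.17 that did not pass (95% interval -2.85 to 0.51, limma adjusted p = 0.24). Without normal library 1 the log2 fold change was -1.86 and passed (adjusted p = 0.034), and without normal library 3 it was -0.48 (adjusted p = 0.35). The ratio of Cd14 to Tlr4 level ran from 1.02 in normal library 1 to 8.09 in normal library 3 and was 3.33 and 6.26 in the AML libraries.

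Tlr5, the receptor for bacterial flagellin (chromosome 1, 184884919 to 184906175, plus strand), was close to the lower end of the scale in AML cells. It was at 9.6, 6.5 and 3.1 RPKM in normal libraries and at 0.1 RPKM in both AML libraries. All normal libraries were far above both AML libraries, and normal library 3 was the lowest of its group. The normal mean was 6.4 ± 3.25 RPKM (SD, n = 3). The ratio of means was 64, and rounding to 1 decimal allows a ratio between 42.3 and 129. At depths estimated roughly from the steps between low values, the levels correspond to about 1125 reads in normal library 1 and 13 reads in AML library 1. The log2 fold change was -2.65 (SE 0.39, limma adjusted p = 0.0038) with a pseudocount of 1 and -4.88 with a pseudocount of 0.1. The call was lost without AML library 2 (adjusted p = 0.0503).

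**Figure D2:**
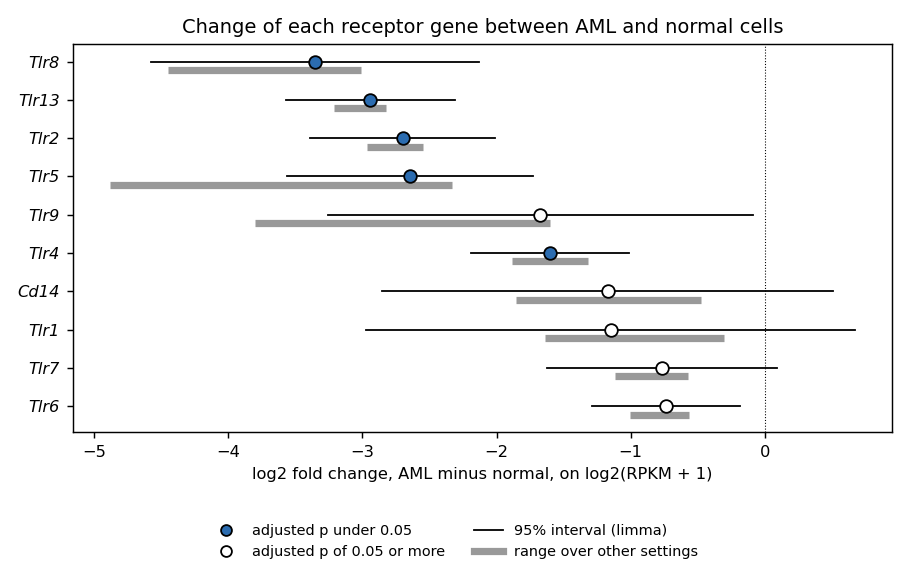
Log2 fold change of AML minus normal on the log2(RPKM + 1) scale (horizontal axis) for the 10 genes, with the 95% interval of the limma fit as a line, a filled point where the adjusted p is under 0.05, and a grey bar for the range over the alternative settings, of which the one without both normal libraries 1 and 2 is not drawn. Every point and grey bar lies below 0, and the intervals of Tlr1, Tlr7 and Cd14 include 0.

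Among the endosomal receptors, Tlr13 and Tlr8 fell, while Tlr7 and Tlr9 did not pass. Tlr13, a sensor of bacterial ribosomal RNA (chromosome X, 103338543 to 103355832, plus strand, ENSMUSG00000033777.3), had the highest mean of the 10 genes in normal cells. It was at 57.4, 53.5 and 36.9 RPKM there and at 5.9 and 5 RPKM in AML libraries. Every normal library exceeded both AML libraries. The means were 49.3 ± 10.9 RPKM (SD, n = 3) and 5.45 ± 0.636 RPKM (SD, n = 2), a ratio of 9.04 (log2 fold change -2.94, SE 0.27, limma adjusted p = 0.00064).

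Tlr8 and Tlr7 are neighbours on chromosome X (163680626 to 163702261 and 163742861 to 163768490, both minus strand), 40.6 kb apart, and encode receptors of the single-stranded RNA sensing subgroup. Tlr8 was at 25.2, 20.9 and 6.6 RPKM in normal libraries and at 0.6 RPKM in both AML libraries. Normal library 3 was the lowest of its group and still above both AML libraries, with a ratio of group means of 29.3, for which rounding allows 26.9 to 32. The normal mean was 17.6 ± 9.74 RPKM (SD, n = 3). The log2 fold change was -3.35 (SE 0.51, limma adjusted p = 0.0046). This call was lost without AML library 2 (adjusted p = 0.056).

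Tlr7 was at 14.9, 14 and 6.5 RPKM in normal and at 5.7 and 6.6 RPKM in AML libraries. Normal library 3 fell within the AML range, so the groups overlapped. The log2 fold change of -0.77 did not pass (95% interval -1.62 to 0.0904, limma adjusted p = 0.15). Without normal library 3 it was -1.11 and passed (adjusted p = 0.0057). Whether Tlr7 and Tlr8 changed by different amounts was not tested.

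Tlr9, which senses unmethylated CpG DNA (chromosome 9, 106124929 to 106129207, plus strand), had the lowest mean of the 10 genes in both groups. Values were 7, 2.6 and 0.3 RPKM in normal and 0.1 and 0 RPKM in AML libraries. Normal library 1 was the highest and normal library 3 close to the AML libraries. The difference did not pass (log2 fold change -1.67, SE 0.67, limma adjusted p = 0.099). It passed without normal library 3 (-2.36, adjusted p = 0.00098) and with a pseudocount of 0.1 (-3.80, adjusted p = 0.04). The remaining Toll-like receptor genes of the mouse, Tlr3, Tlr11 and Tlr12, did not reach the filter. Tlr11 was listed at 2, 0.8 and 0.1 RPKM in normal and 0.1 RPKM in both AML libraries, Tlr3 at 0.3 RPKM or less and Tlr12 at 0.1 RPKM or less in every library.

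In normal cells the order of mean levels was Tlr13, Cd14, Tlr2, Tlr8, Tlr6, Tlr1, Tlr7, Tlr4, Tlr5 and Tlr9. Neighbours in this order overlapped in their library ranges except at 2 steps, from Tlr2 (27.6 RPKM or more) to Tlr8 (25.2 RPKM or less) and from Tlr4 (10.6 or more) to Tlr5 (9.6 or less). In AML cells the order was Cd14, Tlr6, Tlr7, Tlr13, Tlr2, Tlr1, Tlr4, Tlr8, Tlr5 and Tlr9. There Cd14 lay above Tlr6, Tlr6 above Tlr7, Tlr4 above Tlr8 and Tlr8 above Tlr5 in both libraries. Tlr7, Tlr13, Tlr2, Tlr1 and Tlr4 overlapped from one to the next.

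The summed level of the 9 receptors was 169.7, 169.5 and 155.8 RPKM in normal and 33.3 and 30.4 RPKM in AML libraries. The receptor with the largest share of this sum was Tlr13 in normal libraries 1 and 2 (33.8% and 31.6%), Tlr2 in normal library 3 (30.1%) and Tlr6 in both AML libraries (27.1% and 22.7%). Tlr7 took 8.78%, 8.26% and 4.17% in normal and 17.1% and 21.7% in AML libraries, so its share was higher in both AML libraries while its level overlapped between groups. The 4 endosomal receptors made up 61.6%, 53.7% and 32.3% of the sum in normal and 36.9% and 40.2% in AML libraries, and these ranges overlapped. Tlr2 exceeded Tlr6 in every normal library (by 2.18-fold to 3.23-fold) and was below it in both AML libraries (ratios of 0.631 and 0.638).

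**Figure D3:**
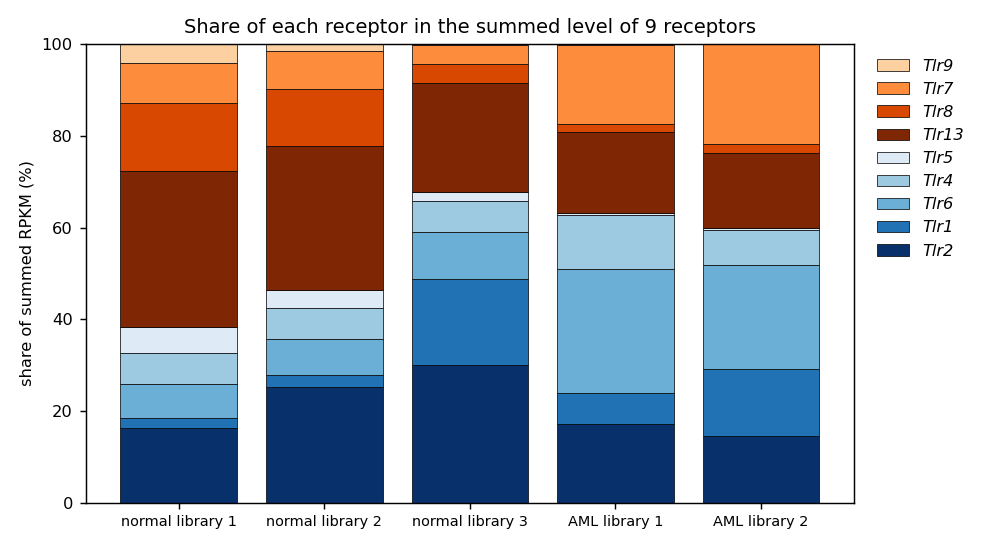
Share of each of 9 Toll-like receptors in their summed RPKM (vertical axis, %) in each library, with cell surface receptors in blue and endosomal receptors in orange and brown. Tlr13 (dark brown) is the largest part of normal libraries 1 and 2, Tlr2 (dark blue) of normal library 3 and Tlr6 of both AML libraries.

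Normal library 3 stood apart from normal libraries 1 and 2 across all tested genes (Pearson correlations of log2(RPKM + 1) of 0.924 and 0.944 with them, against 0.988 between those libraries). Among the receptor genes it had the highest normal value for Tlr1, Tlr2, Tlr6 and Cd14 and the lowest for Tlr4, Tlr5, Tlr7, Tlr8, Tlr9 and Tlr13. Against the mean of normal libraries 1 and 2, Cd14 was 3.95-fold and Tlr1 6.84-fold higher in it. Tlr9 was 16-fold, Tlr8 3.49-fold, Tlr5 2.6-fold and Tlr7 2.22-fold lower. All 4 endosomal receptors were thus lower in this library, and no test compares it with the others because it is 1 library. Of all tested genes, 47.4% were lower and 38.2% higher in normal library 3 than in both other normal libraries.

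**Figure D4:**
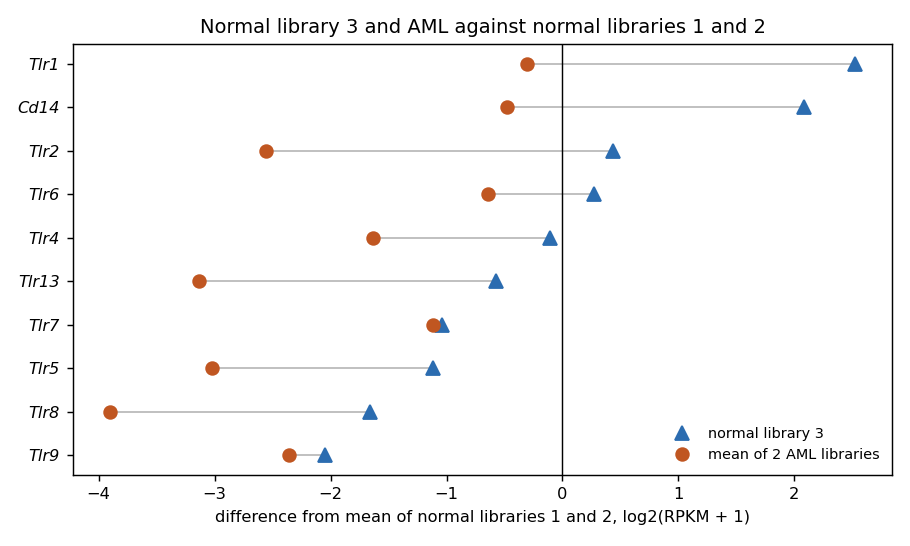
Difference from the mean of normal libraries 1 and 2 on the log2(RPKM + 1) scale (horizontal axis) of normal library 3 (blue triangles) and of the mean of the 2 AML libraries (orange circles) for the 10 genes. Tlr1 and Cd14 lie above 2 in normal library 3 and below 0 in AML cells, and the points of Tlr7 nearly coincide.

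Of 15 monocyte and macrophage genes, 11 were called lower in AML cells and none higher, and none was at 0 in both AML libraries. Of these 11 genes, Cx3cr1, Klf4 and Irf8 reached the filter through normal libraries alone. Csf1r, the receptor for the growth factor of macrophages, was at 73.5, 51.3 and 30.6 RPKM in normal and 4.1 and 5.1 RPKM in AML libraries. The summed level of the list was 1600, 1421 and 1100 RPKM in normal and 1006 and 861 RPKM in AML libraries. Most of the sum in AML cells was Ly6c2, also expressed in granulocyte precursors, and without it, a choice made after its values were seen, the sums were 1047, 803 and 640 RPKM against 52.1 and 56.6 RPKM. Fewer cells of a type and less RNA per cell cannot be told apart in such bulk samples. The part of monocytes in the level of the receptor genes was not tested.

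Of 13 mature neutrophil genes 9 were called lower and none higher, and of 10 progenitor genes 9 were called higher and 1 (Cd34) lower. Cd34 reached the filter through normal libraries alone, so a difference was built into its passing. The summed level was 191200 to 299700 RPKM and 171500 to 238600 RPKM for the neutrophil list in normal and AML libraries, and 346 to 495 RPKM and 10810 to 11800 RPKM for the progenitor list. Most of the neutrophil sum was S100a8, S100a9 and Ngp, none of which was called, so it says little about the 9 genes called lower. Of the neutrophil list no gene was at 0 in both AML libraries, and of the progenitor list Cd34 was. Ly6g, part of the Gr1 epitope used in both sorts, was transcribed in all libraries (1126 to 1464 RPKM in normal and 481.7 and 650.4 RPKM in AML).

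B cell markers summed to 14 to 22.3 RPKM over 10 genes in normal and 11.4 and 14 RPKM in AML libraries, with 1 of 4 tested genes (Vpreb3) lower. The AML sort had selected for B220. Plasmacytoid dendritic cell markers, whose cells are rich in TLR7 and TLR9, summed to 49 to 72.1 RPKM and to 37 and 46.9 RPKM, with 2 of 6 tested genes (Spib and Ly6d) lower. Of all tested genes 31% were called in either direction and 11.8% lower. The shares here were 25% of tested B cell and 33.3% of tested dendritic cell genes, all lower. Vpreb3, Spib and Ly6d reached the filter through normal libraries alone, so a difference was built into their passing. Siglech, Ccr9, Klk1 and Pacsin1 were at 0 in both AML libraries. In the normal libraries Siglech stood at 1.1, 0.8 and 0.5 RPKM, and Ccr9, Klk1 and Pacsin1 were at 0.5 RPKM or less. The other tested dendritic cell markers, Bst2, Runx2, Tcf4 and Irf7, did not pass (log2 fold changes of 0.13, 0.40, -0.24 and -0.90). None of 7 tested erythroid genes was called, and of 8 tested eosinophil and basophil genes 1 was higher and 2 were lower. The called share of the eosinophil and basophil list, 37.5%, was near the 31% of all tested genes. Of the 2 lower genes, Prss34 also reached the filter through normal libraries alone. The erythroid sum was lowest in normal library 3 among the normal libraries, at 1566, 989.5 and 107.3 RPKM in normal and 121.3 and 132.8 RPKM in AML libraries, and so was that of eosinophil and basophil genes (922.4, 976.6 and 71.8 against 123.1 and 250.1 RPKM). None of the erythroid or the eosinophil and basophil genes was at 0 in both AML libraries. The summed T and NK cell genes were at 58 to 65 RPKM in normal and 618.4 and 574.9 RPKM in AML libraries, with Cd8a at 0 in both AML libraries. Cd3e, Cd3g, Nkg7 and Gzma rose and Cd3d fell. Most of the AML sum was Cd3e (233 and 205.3 RPKM), Nkg7 (272.4 and 232.2 RPKM) and Cd3g (89.53 and 114 RPKM). Cd2, Lck, Cd4, Ncr1 and Klrb1c were at 0.69 RPKM or less in both AML libraries and, like Cd8a, were not tested. The part of the genes of these lists in the receptor values was not tested.

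Among accessory factors, several that bind or process the receptors fell, and the tested factors of receptor folding and transport did not pass. Of 16 such genes 13 were tested, 6 fell and none rose, with a median log2 fold change of -0.82. Cd180 reached the filter through normal libraries alone, so a difference was built into its passing. Cd180, which encodes a receptor related to TLR4, was at 20.1, 11.5 and 3.7 RPKM in normal and 0.9 and 0.6 RPKM in AML libraries (log2 fold change -2.62, limma adjusted p = 0.0156). Its partner Ly86 (MD-1) was at 50.6, 51.7 and 39.4 RPKM against 4.6 and 7.4 RPKM (log2 fold change -2.80, limma adjusted p = 0.00078). Both genes were lower in each AML library than in any normal library, and the call of Cd180 was lost without either AML library (adjusted p = 0.076 and 0.12).

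Of 4 lysosomal cysteine proteases on the list, which can cleave endosomal receptors, 3 fell and Ctsb (cathepsin B) did not pass (log2 fold change -0.31, limma adjusted p = 0.43). Ctss (cathepsin S) was 7.46-fold lower, at 203.7, 204.8 and 235.1 RPKM in normal and 24.1 and 33.4 RPKM in AML libraries (log2 fold change -2.87, limma adjusted p = 0.00057). Ctsl (cathepsin L) was 7.49-fold lower (log2 fold change -2.31, limma adjusted p = 0.0104), a call lost without either AML library (adjusted p = 0.065 and 0.088). Lgmn, asparagine endopeptidase, had a log2 fold change of -1.92 (limma adjusted p = 0.0015).

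Unc93b1, the chaperone that carries the nucleic acid receptors to endosomes, was at 91.77, 86.48 and 94.41 RPKM in normal and 91.67 and 105 RPKM in AML libraries (log2 fold change 0.11, limma adjusted p = 0.73). The groups overlapped. Hsp90b1 (gp96) and Cnpy3, folding factors of most Toll-like receptors, were higher in both AML libraries than in any normal library. Their log2 fold changes of 0.62 and 0.49 did not pass (limma adjusted p = 0.094 and 0.15). Lbp, the lipopolysaccharide-binding protein, had 0.76 (limma adjusted p = 0.14). Hsp90b1 and Lbp were called higher without normal library 3 (0.70 and 1.05, limma adjusted p = 0.047 and 0.013).

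Of 24 adaptors and kinases downstream of the receptors, all tested, 3 rose and 4 fell, with a median log2 fold change of -0.44. The called share of this list, 29.2%, was near the 31% of all tested genes. The risers were Ikbke, Tab1 and Irak1, of which Irak1 (log2 fold change 0.99, limma adjusted p = 0.016) kept its call in no fit without 1 library except that without normal library 3 (0.051 to 0.11), and lost it with upper quartile scaling (0.085). Ikbke, a kinase of the interferon arm, was at 10.62, 11.61 and 30.2 RPKM in normal and 88.05 and 150.6 RPKM in AML libraries, a 6.83-fold rise (log2 fold change 2.81, limma adjusted p = 0.0066). Tab1, a partner of the kinase TAK1, rose 3.41-fold (log2 fold change 1.65, limma adjusted p = 0.0054). Both AML libraries were above all normal libraries for these genes, but neither passed when AML library 2 was left out (limma adjusted p = 0.075 and 0.065).

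Irf5, a transcription factor activated through MyD88, was at 42.9, 42.6 and 54.2 RPKM in normal and 4.8 and 7 RPKM in AML libraries, a 7.89-fold fall (log2 fold change -2.80, limma adjusted p = 0.00063). Ticam2, the bridging adaptor of TLR4, fell with a log2 fold change of -1.22 (limma adjusted p = 0.033), a call lost without any 1 library except normal library 3 (adjusted p from 0.051 to 0.23) and with no filter (0.07). The other genes that fell were Tirap and Chuk, close to the threshold (limma adjusted p = 0.043 and 0.0495). Both lost their call without any 1 library except normal library 3 (adjusted p from 0.1 to 0.23) and with no filter (0.071 for both), as Chuk did with a filter at 5 RPKM (0.0501) and with no robust estimation (0.051). Irf5 was then the 1 gene of the list called lower without any 1 library except normal library 3, and with no filter. Myd88, the adaptor shared by all 9 receptors, was at 51.71, 51.73 and 108.7 RPKM in normal and 39.2 and 36.61 RPKM in AML libraries. The AML libraries were lower without overlap, but the difference did not pass (log2 fold change -0.79, limma adjusted p = 0.14). Without normal library 3 the log2 fold change of Myd88 was -0.44 (adjusted p = 0.14), and with upper quartile scaling it was -1.08 and passed (0.047). That scaling called 9 genes of this list lower.

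Negative regulators mostly did not pass. Of 16 genes 13 were tested, 1 rose and none fell, with a median of -0.02. The riser was Sigirr, an inhibitory receptor of the same superfamily, at 1.49, 1.52 and 2.95 RPKM in normal and 7.17 and 7.93 RPKM in AML libraries (log2 fold change 1.55, limma adjusted p = 0.0071). Sigirr no longer passed without AML library 2 (limma adjusted p = 0.07) or without normal libraries 1 and 2 (0.098). Dok3 and Nfkbia did not pass (log2 fold changes of 0.93 and 0.40, limma adjusted p = 0.19 and 0.51). Both were called higher without normal library 3 (1.39 and 0.86, adjusted p = 0.0088 and 0.015). Irak3, a kinase-like inhibitor of the pathway, had a log2 fold change of 0.54 (limma adjusted p = 0.24).

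Of 23 genes that Toll-like receptor signals induce 16 were tested, 7 fell and none rose, with a median of -1.10. Without normal library 3, 7 were lower and 3 (Tnf, Ier3 and Marcksl1) were higher. Of the 16 tested genes 5 reached the filter through normal libraries alone. Among them were 4 of the 7 that fell (Ccl4, Ptgs2, Irg1 and Cd40), so a difference was built into the passing of these genes. Il1b, interleukin-1 beta, was at 135.8, 297.6 and 64.9 RPKM in normal and 3.95 and 6.93 RPKM in AML libraries (log2 fold change -4.47, limma adjusted p = 0.0027). Ptgs2, cyclooxygenase-2, was at 5.4, 18.9 and 2.6 RPKM in normal and 0.1 RPKM in both AML libraries (log2 fold change -2.81, limma adjusted p = 0.0178). Ccl3, a chemokine, was 7.69-fold lower (log2 fold change -2.55, limma adjusted p = 0.0196), and Irg1, an enzyme that makes itaconate, had -1.96 (limma adjusted p = 0.049). The calls of Ptgs2, Ccl3 and Irg1 were lost without either AML library (adjusted p from 0.068 to 0.2), where Il1b was the 1 gene of the list called lower, and with no filter (0.053 to 0.11). Those of Ccl3 and Irg1 were also lost without normal library 2 (adjusted p = 0.056 and 0.072), and that of Irg1 with quantile normalization (0.073) or no variance trend (0.053). Tnf was at 13.3, 9 and 60.3 RPKM in normal and 19.9 and 27.8 RPKM in AML libraries, with overlapping groups (log2 fold change 0.25, limma adjusted p = 0.81). Normal library 3 was the highest of all, and without it the log2 fold change of Tnf was 1.04 and passed (limma adjusted p = 0.017). Without normal libraries 1 and 2 it was -1.32 (adjusted p = 0.031), so its direction turned with the normal libraries used.

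**Figure D5:**
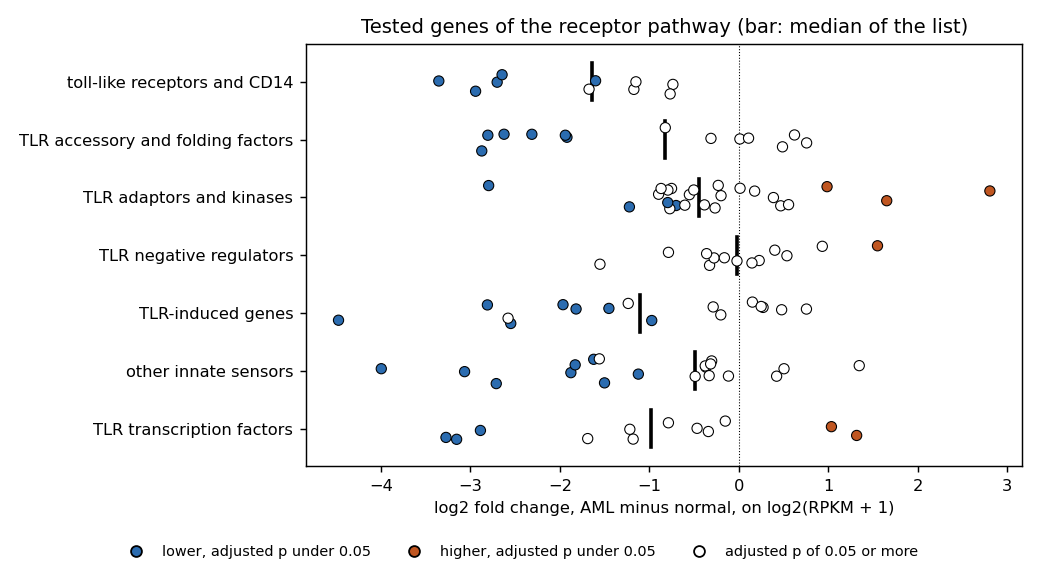
Log2 fold change of AML minus normal on the log2(RPKM + 1) scale (horizontal axis) for every tested gene of 7 lists, 1 point a gene, filled where the adjusted p is under 0.05 (blue lower, orange higher), with a bar at the median of each list. The receptor list has its median at -1.64, and the negative regulators have theirs at -0.02.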

How the data were processed

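One table of 34240 features with a column for each of 5 libraries was used, and columns were matched to samples by title. Values deposited by the authors were treated as RPKM. Neither the labels nor the header state this unit, which rests on the sums of value times exon length in kb (1052562 to 1118076 per library). Per the labels' protocols, total RNA of cells sorted into TRIzol LS was made into TruSeq libraries. Per the submitters' processing notes, mm9 was the build. The aligner, the counting tool and the annotation were not given in the sources used here. RPKM totals ran from 472234 to 638584. Of the 10 receptor genes 8 were deposited with 1 decimal and 2 with 2 decimals.

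Read depth is not in the table. Low values of genes with a single exon had steps that fitted best at 33250000 reads in normal library 1 (69.1% of 223 values whole, within 0.0055 RPKM, against 29.3% by chance) and 35750000 in AML library 1 (56.6% of 166, against 23.8%). These depths are rough, the other libraries gave weaker fits, and no count test was run.

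The filter kept 10166 genes that reached 1 RPKM in 2 or more libraries. Values were transformed as log2(RPKM + 1) and compared by limma (version 3.58.1, under R 4.3.3; moderated two-sided test, variance trend, robust, Benjamini-Hochberg over all tested genes, threshold 0.05). Mean, SD and fold are of RPKM. The fit was tested on simulated data. Gene positions came from the GENCODE annotation of mm9 by symbol. Of 213 list entries 211 had a row, 7 through an older symbol. From each pathway list the text names the 4 called genes with the largest change, or, with no called gene, the 1 of highest mean, and other genes were chosen after their values were seen. The members and lists were chosen with earlier results of these data known. Alternatives were upper quartile scaling, quantile normalization, a pseudocount of 0.1, a filter at 5 RPKM or none, a fit with no variance trend or no robust estimation, rounding to 1 decimal, leaving out each library, and leaving out normal libraries 1 and 2.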

Additional observations from a re-analysis of the deposited data

How the results depend on the processing

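All 133 alternative values of the 10 receptor genes kept a lower level in AML cells, and 121 also kept their side of the threshold. The number of receptor genes called lower was 5, and over the fits without 1 library it ran from 2 (without AML library 2, where Tlr2 and Tlr13 passed) to 7 (without normal library 3). Tlr9 did not reach the filter without normal library 1 or 2, nor at 5 RPKM, where Tlr1 did not either. Without both normal libraries 1 and 2, 5 of 7 tested genes were called, namely Tlr1, Tlr2, Tlr4, Tlr13 and Cd14. That fit takes its spread from the 2 AML libraries, with normal library 3 assumed to vary like them.

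Over all genes 1959 were called higher and 1196 lower. Upper quartile scaling gave 1128 and 1687, changed the share of higher calls among all calls from 62.1% to 40.1%, and moved the median log2 fold change from 0.12 to -0.15. Without 1 library, 326 to 2757 were higher and 348 to 2142 lower, and without normal libraries 1 and 2 the counts were 864 and 471. For adaptors and kinases, where 3 were higher and 4 lower, 9 were lower with upper quartile scaling, 7 with quantile normalization, 1 with no filter and 2 without normal libraries 1 and 2, and the fits without 1 library gave 0 to 4 higher and 1 to 7 lower. For negative regulators, with 1 higher and 0 lower, upper quartile scaling and quantile normalization gave 2 lower, leaving out normal libraries 1 and 2 gave 0 higher and 1 lower, and leaving out 1 library gave 0 to 3 higher and 0 to 2 lower. For induced genes, with 7 lower, no filter gave 3 and a filter at 5 RPKM gave 4, and fits without 1 library gave 1 to 7 lower and 0 to 3 higher. For accessory factors these fits gave 0 to 2 higher. For other innate sensors they gave 0 to 1 higher and 5 to 9 lower. For transcription factors, with 2 higher and 3 lower, upper quartile scaling gave 1 and 5, leaving out normal libraries 1 and 2 gave 1 higher, and leaving out 1 library gave 1 to 2 higher and 2 to 5 lower. The higher calls gained in accessory factors, negative regulators, induced genes and other sensors came without normal library 3. Some of the other genes named that had not passed changed sign. Without normal libraries 1 and 2, Ier3 had -1.58, Nfkbia -0.52 and Marcksl1 -0.031, against 0.27, 0.40 and 0.76 with all libraries. Unc93b1 had -0.19 with upper quartile scaling and -0.034 with quantile normalization. Tnf had -0.0301 with upper quartile scaling, -1.32 without normal libraries 1 and 2, and -0.27 to 1.04 without 1 library. Ctsb had -0.68 to 0.0615 and Ifih1 -0.41 to 0.0414 without 1 library, and Ifih1 had 0.48 without normal libraries 1 and 2. The cause of these shifts was not tested. No paired analysis was possible because the sample titles of the groups share fewer than 2 numbers.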

Other observations

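Sensors outside the Toll-like receptor family were also lower or did not pass the test. Of 20 such genes 19 were tested, 8 fell and none rose, with a median log2 fold change of -0.49. Pglyrp1 did not pass (log2 fold change 1.35, limma adjusted p = 0.10) but was called higher without normal library 3 (1.81, adjusted p = 0.0064). Nlrp3 and Nod2 reached the filter through normal libraries alone, so a difference was built into their passing. Clec4d, a C-type lectin receptor, was at 78.2, 88.4 and 119.6 RPKM in normal and 4.9 and 5 RPKM in AML libraries (log2 fold change -4.00, limma adjusted p = 0.00031). Nlrp3, the sensor of an inflammasome, was at 15.2, 21.4 and 9.2 RPKM against 0.9 and 0.8 RPKM (log2 fold change -3.06, limma adjusted p = 0.0015). Fpr1, a receptor for formylated peptides, and Aim2, a sensor of cytosolic DNA, fell with log2 fold changes of -2.71 and -1.88 (limma adjusted p = 0.0028 and 0.0083). Nod2, a sensor of bacterial cell wall fragments, was 5.24-fold lower (limma adjusted p = 0.0024), while Nod1 did not pass (-0.31, limma adjusted p = 0.27). The sensors of cytosolic RNA Ddx58 and Ifih1 had -0.37 and -0.11 (limma adjusted p = 0.27 and 0.81).

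Among 12 transcription factors that act on these receptor genes or below them, 2 rose and 3 fell. These were 16.7% and 25% of the list, against 19.3% higher and 11.8% lower over all tested genes. All 3 that fell, Klf4, Irf8 and Atf3, reached the filter through normal libraries alone, so a difference was built into their passing. Klf4, a factor of monocyte formation, was at 16, 13.4 and 18.7 RPKM in normal and 0.7 and 0.8 RPKM in AML libraries (log2 fold change -3.27, limma adjusted p = 0.00036). Irf8, a factor of monocytes and dendritic cells, was at 14.8, 13.1 and 10.5 RPKM against 0.9 and 0.8 RPKM (log2 fold change -2.89, limma adjusted p = 0.00045). Atf3, a repressor of inflammatory genes, had -3.15 (limma adjusted p = 0.0173), a call lost without either AML library (adjusted p = 0.097 and 0.11) and with no filter (0.052). Cebpa, a factor of granulocyte formation, rose 2.66-fold (log2 fold change 1.32, limma adjusted p = 0.0059), and Cebpe rose as well (1.04, limma adjusted p = 0.0174). Cebpe lost its call without normal library 2, AML library 1 or AML library 2 (adjusted p = 0.11, 0.075 and 0.11), without normal libraries 1 and 2 (0.18) and with upper quartile scaling (0.06).

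The genes most like each receptor gene were taken as those at the smallest Euclidean distance in log2(RPKM + 1) over the 5 libraries, after centring each gene on its mean. For Cd14 these were Fos and Jun (distances of 0.475 and 0.593), both of which were also highest in normal library 3, at 396.3 and 41.4 RPKM. For Tlr1 they were Slfn4 and Junb, and for Tlr2 Hebp1 and Arfip1. For Tlr9 they were Aqp1 and Car2, of which Car2 was on the erythroid list. For Tlr13 they were Clec4a3 and Gm2a, for Tlr8 Rnase6 and St8sia4, and for Tlr5 Wdfy4 and Sulf2. For Tlr6 they were Sdcbp and Pitpna, for Tlr4 Dstyk and Dhrs1, and for Tlr7 Timd4 and Rassf8. Timd4 and Rassf8 stood at 1.7 RPKM or less in every library, where the log2(RPKM + 1) scale understates changes. With 5 libraries many genes share such a pattern, so the names are a description.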
